A study of Homo sapiens with 12 samples.

Results

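The genes described here make cholesterol and fatty acids and are known targets or regulators of the SREBP transcription factors. They were chosen by symbol from a list of 30 pathway genes, and 28 of the 30 were measured by a probe set that carries 1 gene symbol, among 18417 genes named in that way. FDFT1 and HSD17B7 were not analysed here. The cells came from 4 established human lines, all from anaplastic large cell lymphoma (ALCL, a tumour of T-cell origin): SUDHL-1, DEL, Karpas299 and SUPM2, which all carry the NPM1-ALK fusion. All lines were grown in serum-containing medium to log phase, stained with Hoechst dye and separated by flow cytometry into side population (SP) cells, which hold little dye, and main population (MP) cells, which keep the dye. The labels name no drug treatment and no engineered genetic change in any group. SUDHL-1 had 3 SP and 3 MP arrays, and DEL, Karpas299 and SUPM2 had 1 SP and 1 MP array each, which makes 12 arrays. The cells were sorted in triplicate, with nothing said of separate cultures. In fits of single arrays, p-values therefore reflect only how far these arrays scatter, and that scatter may be technical. In the test over the 4 lines, p-values reflect the spread of 1 SP minus MP difference per line, which also holds the scatter of the arrays.

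Cells build cholesterol from acetyl-CoA through mevalonate and then through a series of sterol intermediates. When sterol in the endoplasmic reticulum is low, the escort protein SCAP carries SREBP to the Golgi, where it is cut and its free part enters the nucleus to turn on these genes; when sterol is ample, INSIG proteins hold SCAP back. SREBF2 encodes the form that mainly drives sterol genes and SREBF1 the forms that mainly drive fatty acid genes. In lymphocytes the pathway is known to be switched on when cells are activated and grow.

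Values are log2 signals, so a difference of 1 is a 2-fold difference, and levels are compared between arrays for the same gene only. The median signal of an array was 4.83 to 5.0 for SUDHL-1, below the 5.24 to 5.35 of DEL, Karpas299 and SUPM2. Among ALCL markers, TNFRSF8 (CD30) lay at or above the 71.1 percentile of named genes on every array, IL2RA at or above the 98.7 percentile and GZMB at or above the 94.5 percentile. TMOD1 and PTPN12 were less steady and fell to the 27.4 and 64.4 percentile on their lowest array. ALK was not analysed here. Of the 9 ALCL markers measured, 6 lay in the top 25% on all arrays, against 0 of 8 T cell markers, 0 of 8 hepatocyte and adipocyte markers, 0 of 6 B cell markers, 1 of 6 myeloid markers (CD68) and 1 of 8 stromal and epithelial markers (VIM). T cell markers differed between arrays: CD3D, CD2, CD4 and CD5 reached the 97.4, 94.4, 95.9 and 93.4 percentile on their highest array. CD7 reached the 79.6 percentile, and CD3E, CD3G and LCK stayed at or below the 50.2 percentile. In these bulk samples, fewer cells of a type and less RNA per cell cannot be told apart. The third MP array of SUDHL-1 stood apart for the genes described here, so SUDHL-1 results are given with and without it.

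In SUDHL-1, most sterol and fatty acid genes read lower in SP than in MP cells, but none passed the test, and most of the shift rested on 1 array. SP was lower for 24 of 28 genes, against 50.1% of all named genes, and the median difference was -0.32 on the log2 scale, against -0.00024 over all genes. Without MP array 3, SP was lower for 21 of 28 genes (52.9% of all genes) and the median difference was -0.06, against -0.01 over all genes. With limma on the 6 arrays, 0 of the 28 passed the threshold of 0.05 after Benjamini-Hochberg adjustment over all named genes, where the background was 0.0%. At an unadjusted p under 0.05 there were 577 genes (3.13%), also 577 with a robust trended variance, and 1 of them was a member of the list, LPIN1. The SP and MP arrays of SUDHL-1 did not overlap for 2 of the 28 genes with SP lower, FDPS and LPIN1, against 3.42% of all genes, and for 0 of the 28 with SP higher, against 3.74%.

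The plot of SUDHL-1 arrays shows every measured gene on every array. MP array 3 had the highest signal of the 6 SUDHL-1 arrays for 22 of the 28 genes, against 17.5% of all named genes. The other 6 genes peaked on SP array 2 (1 gene), SP array 3 (2 genes), MP array 1 (2 genes) and MP array 2 (1 gene). MP array 3 exceeded the mean of the other 5 arrays by more than 0.5 for 20 of 28 genes, against 10.2% of all genes, and by more than 1 for 7 of 28, against 2.56%. The mean over the 28 genes was 7.1, 7.25 and 7.15 on the SP arrays, 7.17 and 7.31 on the first 2 MP arrays and 8.03 on MP array 3. The 5 remaining arrays therefore lay within a narrow range, with both MP arrays among the SP arrays or just above them.

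**Figure D1:**
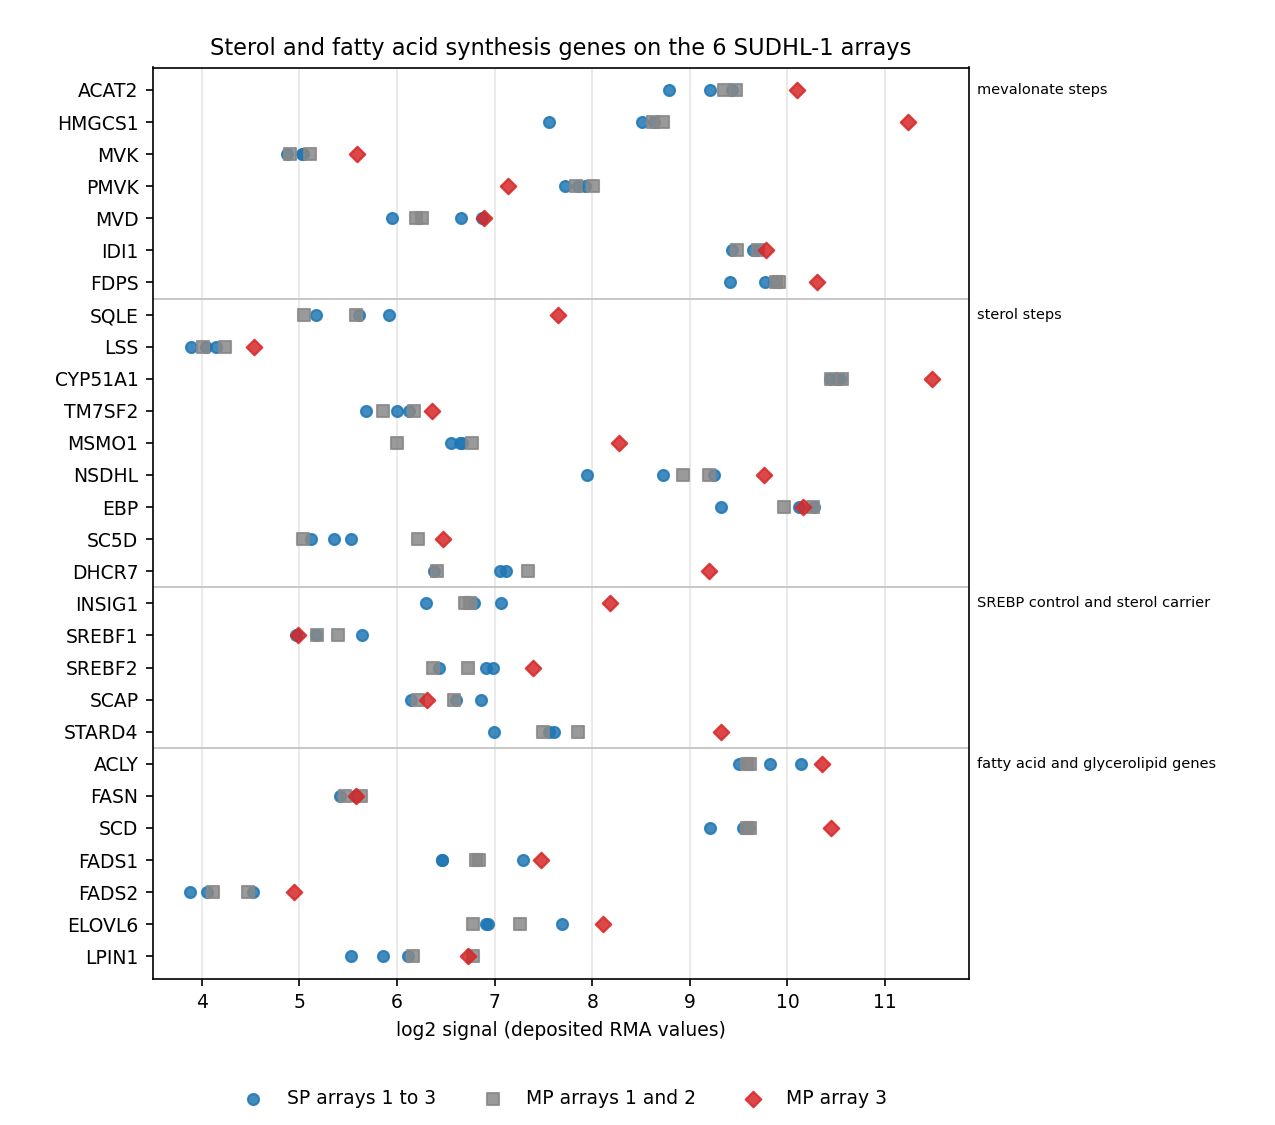
Log2 signal of the 28 measured genes on the 6 SUDHL-1 arrays, with SP and MP arrays marked separately and genes ordered by role. MP array 3 is the highest point for 22 of 28 genes, and HMGCS1 on it reads 11.24 against 7.56 to 8.73 on the other 5 arrays.

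Promoters are shown for SREBF2 and for 5 listed genes with a printable RefSeq window. Among listed genes with such a window, these 5 had the largest excess on MP array 3 over the mean of the other 5 arrays. Each sequence runs 5′ to 3′ from 250 bases before to 50 bases from the start on, from RefSeq on GRCh38.p14, and the first window of a gene with several was used. Capitals mark CCAAT, the box bound by NF-Y, on either strand (ATTGG on the other), and CACNCCAC, a short form of the sterol response element that SREBP binds, on either strand.
HMGCS1, chr5:43313363-43313662, minus strand: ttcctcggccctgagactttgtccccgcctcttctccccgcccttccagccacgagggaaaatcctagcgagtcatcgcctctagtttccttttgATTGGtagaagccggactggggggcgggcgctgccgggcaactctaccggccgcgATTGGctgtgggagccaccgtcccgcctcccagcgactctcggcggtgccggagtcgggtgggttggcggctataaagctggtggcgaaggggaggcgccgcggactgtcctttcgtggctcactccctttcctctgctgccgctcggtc
DHCR7, chr11:71448344-71448643, minus strand: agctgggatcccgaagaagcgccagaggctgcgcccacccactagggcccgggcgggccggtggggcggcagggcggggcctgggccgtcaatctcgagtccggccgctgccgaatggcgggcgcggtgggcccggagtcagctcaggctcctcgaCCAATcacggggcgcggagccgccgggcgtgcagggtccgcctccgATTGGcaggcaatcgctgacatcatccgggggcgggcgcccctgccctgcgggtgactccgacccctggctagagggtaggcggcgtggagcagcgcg
STARD4, chr5:111512486-111512785, minus strand: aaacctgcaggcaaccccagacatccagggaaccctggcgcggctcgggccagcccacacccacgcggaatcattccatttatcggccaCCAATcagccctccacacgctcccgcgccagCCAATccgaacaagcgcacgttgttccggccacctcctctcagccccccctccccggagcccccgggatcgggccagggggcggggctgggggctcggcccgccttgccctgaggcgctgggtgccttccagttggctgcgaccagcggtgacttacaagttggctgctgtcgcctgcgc
MSMO1, chr4:165327419-165327718, plus strand: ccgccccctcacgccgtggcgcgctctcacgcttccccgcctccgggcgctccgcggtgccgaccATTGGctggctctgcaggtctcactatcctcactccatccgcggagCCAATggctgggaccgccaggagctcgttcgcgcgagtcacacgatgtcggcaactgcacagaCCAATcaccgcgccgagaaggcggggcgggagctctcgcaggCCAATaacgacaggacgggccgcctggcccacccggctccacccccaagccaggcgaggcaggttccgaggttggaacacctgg
INSIG1, chr7:155297628-155297927, plus strand: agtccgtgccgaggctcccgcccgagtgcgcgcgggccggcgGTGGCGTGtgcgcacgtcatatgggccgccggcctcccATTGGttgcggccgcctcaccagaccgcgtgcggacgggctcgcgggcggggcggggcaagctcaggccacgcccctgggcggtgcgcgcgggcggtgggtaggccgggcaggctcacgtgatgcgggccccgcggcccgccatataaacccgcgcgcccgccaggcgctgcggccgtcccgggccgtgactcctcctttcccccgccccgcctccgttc
SREBF2, chr22:41832855-41833154, plus strand: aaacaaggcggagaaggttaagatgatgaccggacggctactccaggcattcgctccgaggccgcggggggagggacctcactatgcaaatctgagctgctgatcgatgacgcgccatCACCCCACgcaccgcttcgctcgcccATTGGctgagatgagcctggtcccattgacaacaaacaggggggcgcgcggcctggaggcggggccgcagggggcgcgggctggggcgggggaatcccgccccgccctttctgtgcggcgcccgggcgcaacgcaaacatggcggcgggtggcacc
The 9-letter form of the sterol response element, TCACNCCAC, was found on either strand in 1 of the 26 listed genes with a window, SREBF2, or 3.85%, against 1.39% of 27305 genes. In SREBF2 the match lies upstream of an inverted CCAAT box. The short form CACNCCAC, which every match of the longer form contains, was searched after that result was seen, as was the choice of windows to print. It was present in IDI1, SC5D, INSIG1, SREBF2 and SCD, which is 19.2% of the 26 against 7.05% of all genes. CCAAT was present in 19 of 26 (73.1%, against 39.7%), and MSMO1 held 4 copies of it. GGGCGG, the SP1 box, was present in 25 of 26 (96.2%, against 48.3%) and CACGTG, the E-box, in 4 of 26 (15.4%, against 8.77%). The 27305 genes are all genes with a window and were not limited to those measured on the arrays. These are matches of letters in a window, and no binding was measured.

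Among the 7 mevalonate genes, HMGCS1, which makes HMG-CoA from acetyl units, gave the largest excess on MP array 3 of any gene on the list. Its signal was 7.56, 8.51 and 8.63 on the SP arrays and 8.73, 8.62 and 11.24 on the MP arrays. The last array was 2.83 above the mean of the other 5, a 7.12-fold difference that ranked 4 among the 18417 named genes. SP minus MP for HMGCS1 was -1.29 (SE 0.69; limma, adjusted p = 1.00) with all arrays and -0.44 without MP array 3. ACAT2, which condenses acetyl-CoA, read 9.21, 9.43 and 8.79 in SP and 9.35, 9.47 and 10.1 in MP. The lowest ACAT2 value was an SP array and the highest MP array 3, with SP array 2 between the first 2 MP arrays. MVK, mevalonate kinase, read 5.04, 4.87 and 5.03 in SP and 4.9, 5.11 and 5.59 in MP, with MP array 3 again highest. FDPS, which makes farnesyl diphosphate, read 9.41, 9.86 and 9.77 in SP and 9.91, 9.88 and 10.3 in MP. All 3 FDPS values in MP lay above all 3 in SP, and the difference of -0.34 (SE 0.19; limma, adjusted p = 1.00) was -0.21 without MP array 3. IDI1, the isomerase that follows mevalonate, was nearly level, with 9.43, 9.69 and 9.65 in SP and 9.7, 9.48 and 9.78 in MP. MVD, which decarboxylates mevalonate diphosphate, read 6.66, 5.95 and 6.87 in SP and 6.26, 6.19 and 6.89 in MP, so its groups overlapped. PMVK, phosphomevalonate kinase, went the other way and was lowest on MP array 3, at 7.14 against 7.72 to 8.01 on the other 5 arrays.

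The 9 measured genes of the sterol steps had the highest median excess on MP array 3 of the roles, 0.98, and 8 of the 9 were highest there. SQLE, squalene epoxidase, which performs an early oxygen-dependent and rate-limiting step, read 5.61, 5.92 and 5.17 in SP and 5.05, 5.58 and 7.65 in MP. DHCR7, which carries out a last reduction to cholesterol, read 7.12, 6.38 and 7.05 in SP and 6.41, 7.34 and 9.2 in MP. MSMO1, a sterol demethylation enzyme, read 6.55, 6.67 and 6.65 in SP and 6.0, 6.77 and 8.27 in MP. For these 3 genes MP array 3 stood 2.18, 2.34 and 1.75 above the mean of the other 5 arrays, while the other 2 MP arrays lay below, within or slightly above the SP range. Leaving MP array 3 out took SP minus MP from -0.53 to 0.25 for SQLE, from -0.80 to -0.02 for DHCR7 and from -0.39 to 0.24 for MSMO1. CYP51A1, the lanosterol demethylase, read 10.44, 10.51 and 10.54 in SP and 10.45, 10.56 and 11.48 in MP. It had 2 probe sets, and both were highest on MP array 3, by 0.98 for the brighter and 0.74 for the other. SC5D, a sterol desaturase, read 5.12, 5.35 and 5.53 in SP and 5.04, 6.22 and 6.47 in MP, so here MP array 2 was also above every SP array. NSDHL, which works with MSMO1 in demethylation, read 8.72, 9.25 and 7.95 in SP and 8.93, 9.2 and 9.76 in MP. LSS, the cyclase that makes lanosterol, was 0.46 above the mean of the other 5 arrays on MP array 3, and TM7SF2, a sterol reductase, 0.40. EBP, a sterol isomerase, was the exception among the sterol steps, with 10.16 on MP array 3 inside the range of 9.32 to 10.27 of the others.

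The regulators were divided. INSIG1, the retention protein and itself a target of SREBP, read 6.79, 6.3 and 7.07 in SP and 6.7, 6.75 and 8.18 in MP. STARD4, a carrier of sterol between membranes, read 7.56, 7.61 and 6.99 in SP and 7.85, 7.5 and 9.32 in MP. Both were highest on MP array 3, by 1.46 and 1.82 over the mean of the other 5 arrays. SREBF2 read 6.43, 6.98 and 6.91 in SP and 6.73, 6.37 and 7.39 in MP, 0.70 above that mean on MP array 3. SREBF1 did not share the excess, with 5.17, 4.96 and 5.64 in SP and 5.18, 5.4 and 4.99 in MP. SCAP likewise lay inside its range, with 6.6, 6.86 and 6.14 in SP and 6.22, 6.58 and 6.31 in MP. For these 5 genes SP minus MP lay between -0.84 (STARD4) and 0.17 (SCAP), with an adjusted p of 1.00 for each in limma's fit.

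Of the 7 fatty acid and glycerolipid genes, 5 were highest on MP array 3, with a median excess of 0.71. LPIN1, which makes diacylglycerol, had the smallest p of the 28 genes in SUDHL-1. It read 5.86, 6.11 and 5.53 in SP and 6.78, 6.16 and 6.73 in MP, and all MP values were above all SP values. The difference was -0.72 (SE 0.23; limma, unadjusted p = 0.0152, adjusted p = 1.00), and -0.63 without MP array 3. SCD, which puts the double bond into saturated fatty acids, read 9.54, 9.6 and 9.21 in SP and 9.62, 9.59 and 10.45 in MP, and ELOVL6, an elongase of fatty acids, read 6.91, 7.69 and 6.93 in SP and 6.78, 7.26 and 8.11 in MP. For both, the highest value was MP array 3 and the remaining SP and MP arrays overlapped. FASN, fatty acid synthase, was flat over the 6 arrays at 5.42 to 5.63. The desaturases FADS1 and FADS2 were 0.71 and 0.74 above the mean of the other 5 arrays on MP array 3, and ACLY, which supplies cytosolic acetyl-CoA, 0.61.

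The plot of array deviations places MP array 3 against the other arrays for each gene. Of the 4 roles, mevalonate genes had 6 of 7 highest there, sterol steps 8 of 9, control and carrier genes 3 of 5 and fatty acid genes 5 of 7.

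**Figure D2:**
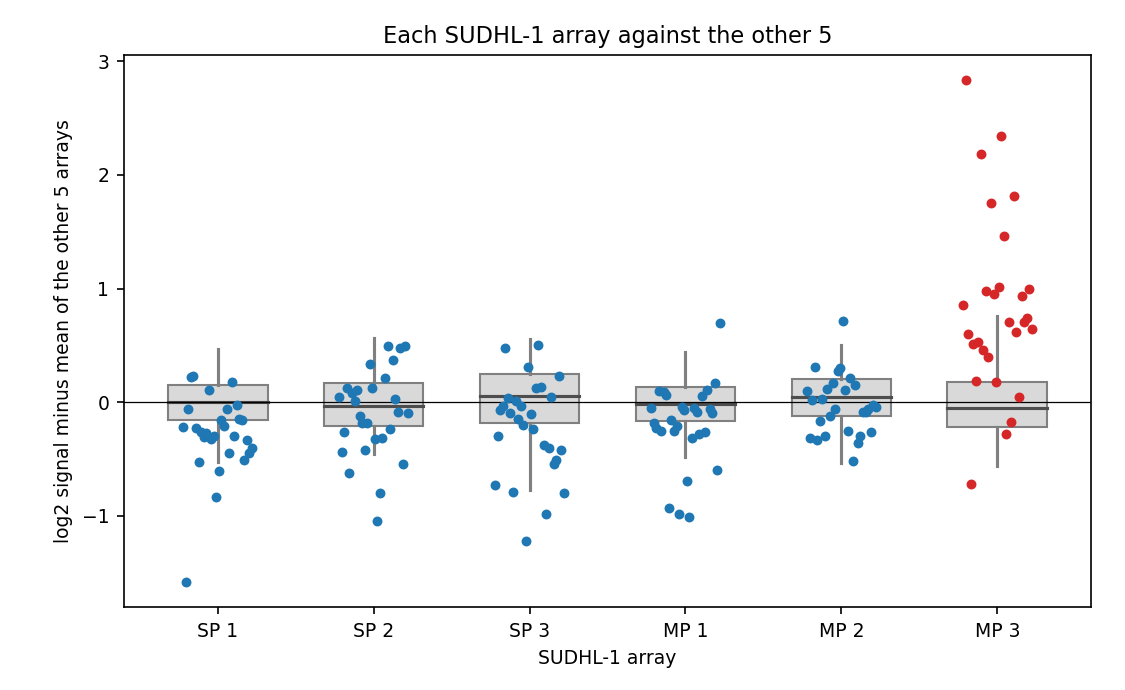
Deviation of each gene on each SUDHL-1 array from the mean of the other 5 arrays, on the log2 scale. HMGCS1, DHCR7 and SQLE stand 2.83, 2.34 and 2.18 above that mean on MP array 3, while PMVK stands at -0.72.

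Other genes of the pathway showed less of the excess. Of 28 measured genes of a wider list, 11 were highest on MP array 3, against 17.5% of all genes. The mean of the list was 0.30 above that of the other 5 arrays, against 0.83 for the 28 genes described and 0.0 over all genes. ELOVL7, a further elongase, read 8.74 on it against 6.61 to 7.09, ACSL1, which activates fatty acids, 9.08 against 7.61 to 8.36, and TMEM97, a sterol-regulated membrane protein, 8.03 against 5.92 to 7.72. Among genes of sterol export, storage and LXR action, the mean excess was 0.16, with NPC1, a lysosomal cholesterol transporter, at 9.07 against 7.4 to 8.04 and ABCA1, a cholesterol exporter, at 5.33, below the 5.52 to 6.65 of the others. The isoprenoid branch lay at -0.03. None of the 3 lists had a gene past the adjusted threshold for SP minus MP in SUDHL-1 (0 of 28, 0 of 17 and 0 of 10, limma).

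Other gene groups moved on the same array, and their part in the result was not tested. The G2/M list averaged 9.3, 9.48 and 8.78 on the SP arrays and 8.86, 8.54 and 7.91 on the MP arrays. Of its 25 genes, 0 were highest on MP array 3, against 17.5% of all genes. Endoplasmic reticulum chaperones were 0.38 above the mean of the other arrays there, with 11 of 16 genes highest. ALCL markers were 0.60 above, with 7 of 9 highest, and both counts stand against the same 17.5% of all genes. Reference genes of every cell lay at -0.06. Hepatocyte and adipocyte markers lay at 4.04 on MP array 3 against 4.02 to 4.31 on the other arrays, and stromal and epithelial, B cell and myeloid markers at -0.12, -0.10 and 0.07 relative to the mean of the others. T cell markers lay at -0.30. The non-members with the largest excess on MP array 3 were TCEAL9 (6.5 against 2.65 to 2.97), SULT1B1, GXYLT2, CD226 and SATB1, with excesses of 3.71, 3.01, 2.88, 2.78 and 2.63. The genes whose pattern over the 12 arrays was most like the mean of the 28, after each line was centred on its own mean, were RAB3C, CTNNA1, VCAN, OS9 and MAPK13, with Pearson r of 0.99, 0.97, 0.97, 0.96 and 0.96 over 12 arrays. Without MP array 3 the same values were 0.88, 0.70, 0.63, 0.82 and 0.72 over 11 arrays. The arrays of a line share cells, so these values describe likeness only.

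Across the lines, no sterol or fatty acid gene passed the test between SP and MP, and 5 read lower in SP in every line. The test used 1 SP minus MP difference per line (n = 4 lines). After adjustment 0 of 28 genes passed, with a background of 0.0%, while 904 genes (4.91%) had an unadjusted p under 0.05, or 47 with a robust trended variance, which held 0 of the 28. Of the 904, 4 were on the list: ELOVL6, FADS1, SCD and DHCR7. Without MP array 3 there were 2, ELOVL6 and FADS1. The mean difference was below 0 for 21 of the 28, against 44.4% of all genes, and for 18 of the 28 without MP array 3, against 45.2%. The median over the 28 was -0.11, against 0.02 over all genes. SP was lower in 4 of 4 lines for 5 of the 28 (FDPS, DHCR7, SCD, FADS1 and ELOVL6), against 5.65% of all genes, and higher in 4 of 4 lines for 0, against 8.09%. Without MP array 3 the count of 5 became 4, against 5.66% of all genes, because ELOVL6 in SUDHL-1 turned from -0.21 to 0.15.

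ELOVL6 differed by -0.21, -0.67, -0.84 and -0.80 in SUDHL-1, DEL, Karpas299 and SUPM2, with a mean of -0.63 (SE 0.14; unadjusted p = 0.00405, limma adjusted p = 0.918). FADS1 differed by -0.31, -0.36, -0.51 and -0.49 (mean -0.42, SE 0.10; unadjusted p = 0.00671, limma adjusted p = 0.918). SCD differed by -0.44, -0.18, -0.15 and -0.41, and DHCR7 by -0.80, -0.13, -0.02 and -1.08. FADS1 varied little over the lines (SD 0.10, n = 4), while DHCR7 was near 0 in Karpas299. FDPS gave differences of -0.34, -0.18, -0.20 and -0.16 (mean -0.22, SD 0.08, n = 4), and its SD fell to 0.02 without MP array 3. HMGCS1, the listed gene with the largest excess on MP array 3, gave -0.28, -0.12 and 0.09 in DEL, Karpas299 and SUPM2, beside -1.29 in SUDHL-1, or -0.44 there without that array.

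Each of DEL, Karpas299 and SUPM2 had 1 array per population, so no test was possible within them. In DEL, SP was lower for 21 of 28 genes (47.3% of all genes) with a median of -0.21 (0.02 over all genes); 5 genes were below -0.5 (8.24% of all genes) and 1 was above 0.5 (6.53%). In Karpas299, SP was lower for 13 (50.8%) with a median of 0.04 (-0.01), 5 genes were below -0.5 (7.62%) and 4 above 0.5 (9.2%). In SUPM2, SP was lower for 17 (42.1%) with a median of -0.12 (0.07), 3 genes were below -0.5 (11.8%) and 4 above 0.5 (14.5%). All 7 fatty acid and glycerolipid genes were lower in SP in DEL, 6 of 7 in SUPM2 and 3 of 7 in Karpas299. Single genes ran opposite ways: the SP minus MP difference of SC5D was 1.47 in Karpas299 and -0.53 in DEL, and that of LSS was 1.00 and 0.69 in Karpas299 and DEL but -0.43 in SUPM2.

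The difference between SUDHL-1 and the other 3 lines in SP minus MP was fitted as an interaction. No gene of the 28 passed (background 0.0%), 661 genes (3.59%) had an unadjusted p under 0.05 (651 with a robust trended variance), and MVK was the 1 member among them, at -0.65 (SE 0.26; unadjusted p = 0.0331, limma adjusted p = 1.00). MVK was higher in SP in DEL, Karpas299 and SUPM2, by 0.42, 0.26 and 0.63, and -0.22 in SUDHL-1. The interaction was below 0 for 21 of the 28, against 55.0% of all genes, with a median of -0.22, and for 15, against 56.7%, with a median of -0.01 without MP array 3.

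**Figure D3:**
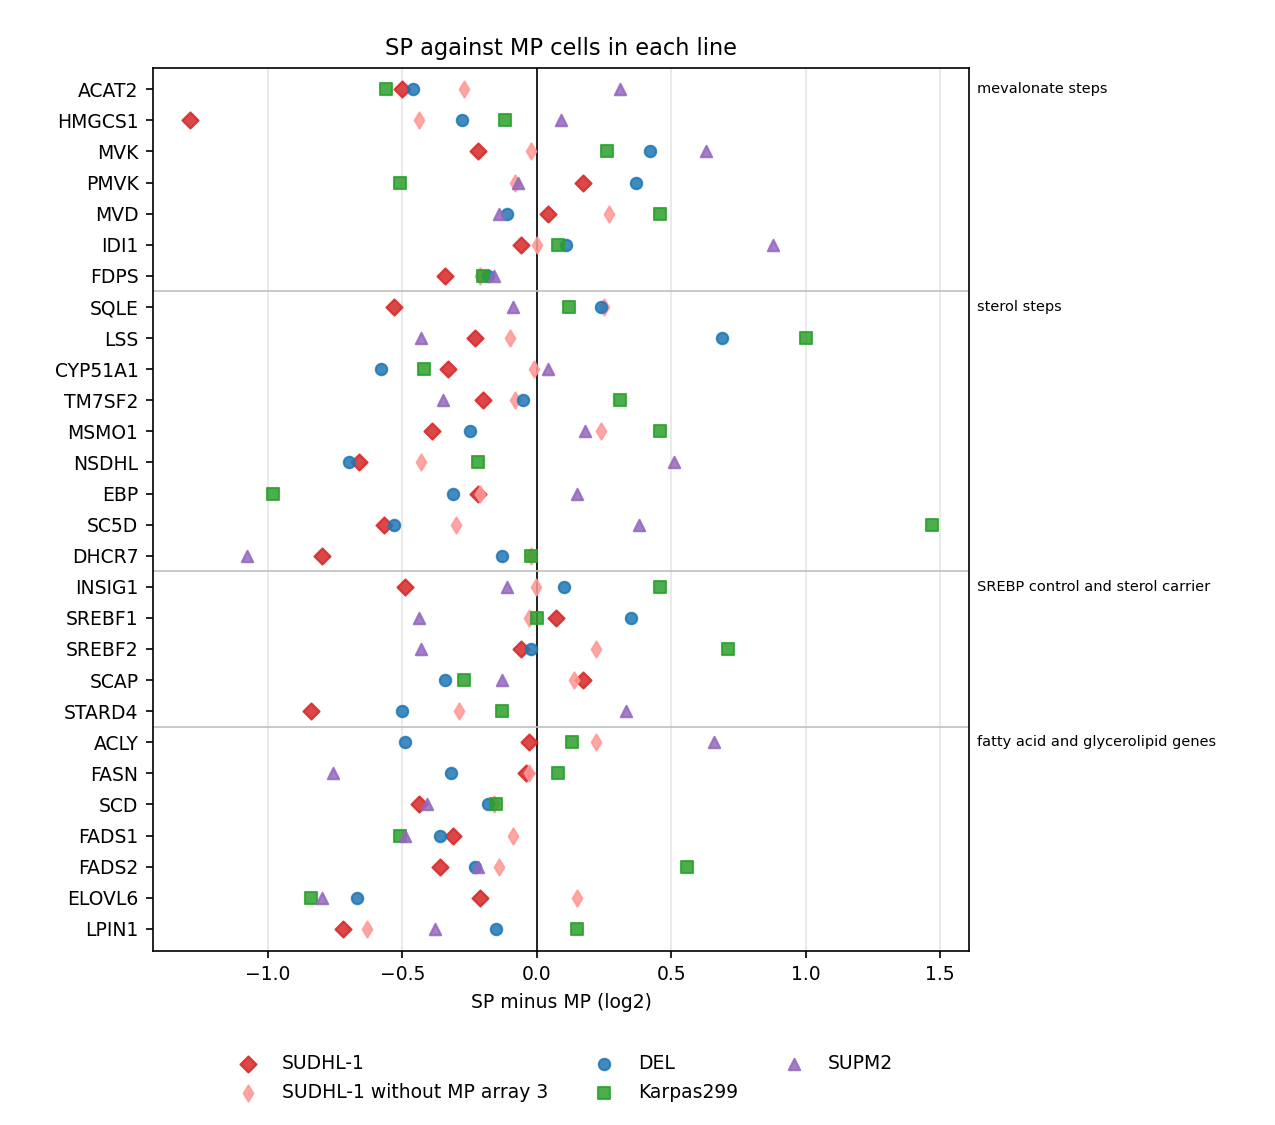
SP minus MP difference on the log2 scale for each gene in SUDHL-1 (mean of 3 SP minus mean of 3 MP arrays), SUDHL-1 without MP array 3, DEL, Karpas299 and SUPM2. The median is -0.32 in SUDHL-1 and -0.06 without MP array 3, and FDPS, DHCR7, SCD, FADS1 and ELOVL6 lie below 0 in all 4 lines.

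Between SUDHL-1 and the other lines, these genes were called in both directions. FASN and both SREBF genes were among the lower in SUDHL-1, and IDI1 and CYP51A1 among the higher. For the levels, each array was centred on its own median. Line and array set cannot be told apart here, and the SUDHL-1 arrays had the lower medians. With limma, 19 of the 28 genes differed between SUDHL-1 and the other 3 lines, against 53.1% of all genes. SUDHL-1 was higher for 10 of them and lower for 9, against 28.9% and 24.3% of all genes. Without MP array 3, 22 of the 28 were called, beside 9418 of the 18417 named genes. On the deposited scale the counts were 9 higher and 11 lower, against 16.4% and 49.2% of all genes, and after a further quantile normalization 8 and 11, against 23.2% and 28.4%. The median over the 28 genes was 0.24 on the centred scale and -0.12 on the deposited scale, where the median over all genes was 0.04 and -0.33. Of the 19 called genes, 15 stayed called in all 16 alternatives, and ACLY, SCAP, SCD and TM7SF2 did not.

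SUDHL-1 was called higher for 7 and lower for 2 of the 16 mevalonate and sterol genes. The counts were 3 higher and 4 lower for the 7 fatty acid and glycerolipid genes, and 0 and 3 for the 5 control and carrier genes. Of all genes, 28.9% were called higher and 24.3% lower. IDI1 read 9.43 to 9.78 with a median of 9.67 on the 6 SUDHL-1 arrays and 7.21 to 8.31 with a median of 7.41 on the other 6, and its centred difference was 2.46 (SE 0.15; limma adjusted p = 6.29e-07). CYP51A1 read 10.44 to 11.48 (median 10.52) against 7.96 to 9.74 (median 8.65), a centred difference of 2.21 (SE 0.18; limma adjusted p = 3.86e-06). SQLE read 5.05 to 7.65 (median 5.6) against 3.57 to 4.08 (median 3.92), at 2.31 (SE 0.39; limma adjusted p = 0.000637), and 1.93 without MP array 3. Every SUDHL-1 array lay above every other array for IDI1, FDPS, SQLE, CYP51A1 and NSDHL, that is 5 of 28 genes, against 15.2% of all genes on the centred scale and 7.51% on the deposited scale, where the same 5 genes were found. NSDHL differed by 2.13, FDPS by 1.5, SC5D by 1.41 and ACAT2 by 1.26. The centred mean of ACAT2 was 4.48 in both SUDHL-1 and Karpas299, so its difference came from DEL (2.95) and SUPM2 (2.22). SC5D overlapped DEL, at 0.15 to 1.58 in SUDHL-1 and -0.31 to 0.24 in DEL on the centred scale. Among fatty acid genes, ELOVL6 was 2.00 higher, ACLY 0.84 and SCD 0.55. The call for SCD was lost on the deposited scale, where it was 0.18, and that for ACLY after quantile normalization.

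The genes lower in SUDHL-1 included FASN and both SREBF genes. FASN read 5.42 to 5.63 (median 5.57) in SUDHL-1 and 7.15 to 8.21 (median 7.9) in the other lines, with a centred difference of -1.92 (SE 0.12; limma adjusted p = 7e-07). SREBF1 read 4.96 to 5.64 (median 5.18) against 6.47 to 7.34 (median 6.68), at -1.17 (SE 0.13; limma adjusted p = 3.82e-05). Every SUDHL-1 array was below every other array for these 2 of 28 genes, against 12.2% of all genes, and for 9 of 28 on the deposited scale, against 29.1%. FADS2 read 3.88 to 4.94 against 5.34 to 9.18, at -2.18 (SE 0.18; limma adjusted p = 5.25e-06). SREBF2 was -0.99, LPIN1 and LSS each -1.03, FADS1 -0.94, SCAP -0.51 and TM7SF2 -0.33. On the centred scale SREBF2 in DEL, at 2.19 to 2.23, lay inside the SUDHL-1 range of 1.46 to 2.5. The SREBF2 difference thus came from Karpas299 (mean 3.15) and SUPM2 (mean 3.26). LPIN1 in DEL, at 1.67 to 1.84, also lay inside the SUDHL-1 range of 0.53 to 1.88. The fatty acid enzymes thus divided, with ELOVL6, ACLY and SCD above and FASN, FADS1 and FADS2 below the mean of the other 3 lines. Line by line, all but FASN overlapped at least 1 other line on the centred scale. ELOVL6 spanned 1.89 to 3.23 in SUDHL-1 and 1.4 to 2.09 in DEL, with a mean of -1.34 in Karpas299. FADS1 spanned 1.46 to 2.6 in SUDHL-1 and 2.13 to 2.58 in SUPM2.

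Of the 7 genes more than 1 above the other arrays on MP array 3, SQLE and SC5D were called higher in SUDHL-1, against 28.9% of all genes. These 7 were picked by their level on a SUDHL-1 array that this fit includes, so the count is a description only. HMGCS1 was 0.94 (SE 0.46; limma adjusted p = 0.11), STARD4 0.60, DHCR7 0.09 and MSMO1 0.07, none past the threshold. With 1 SUDHL-1 array left out, HMGCS1 ranged from 0.49 to 1.17 and STARD4 from 0.31 to 0.74. DHCR7 then ranged from -0.28 to 0.34 and MSMO1 from -0.24 to 0.27, so their sign depended on the arrays used. INSIG1 was -0.62 (limma adjusted p = 0.0774) and passed without MP array 3, at -0.87 (SE 0.13; limma adjusted p = 0.000502). Without that array 11 genes were called higher and 11 lower (27.9% and 23.3% of all genes), the additions being PMVK, MVD and INSIG1.

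Among DEL, Karpas299 and SUPM2, with 2 arrays a line and 2 residual degrees of freedom, each line was set against the mean of the other 2. In DEL, 2 of the 28 genes were called (2.66% of all genes), 1 higher (1.74%) and 1 lower (0.918%). In Karpas299, 6 were called (4.33%), 5 higher (2.57%) and 1 lower (1.76%). In SUPM2, 4 were called (7.34%), 0 higher (2.07%) and 4 lower (5.26%). FADS2, the desaturase that starts the long polyunsaturated chains, read 9.18 and 8.62 (SP and MP) in Karpas299, 6.14 and 6.37 in DEL, and 5.34 and 5.57 in SUPM2. The 3 lines did not overlap, and Karpas299 was 3.09 higher (SE 0.23; limma adjusted p = 0.00623) and SUPM2 differed by -2.19 (SE 0.23; limma adjusted p = 0.0105). ELOVL6 read 6.67 and 7.33 in DEL, 5.61 and 6.42 in SUPM2, and 3.5 and 4.33 in Karpas299. DEL was 2.07 higher (SE 0.16; limma adjusted p = 0.00759) and Karpas299 differed by -2.55 (SE 0.16; limma adjusted p = 0.00479). HMGCS1 read 9.42 and 9.54 in Karpas299 against 7.69 and 7.97 in DEL and 7.65 and 7.56 in SUPM2. Karpas299 was thus 1.81 above the mean of the other 2 (SE 0.17, limma adjusted p = 0.0111). SUPM2 was called lower than the mean of DEL and Karpas299, at -1.12 (SE 0.17, limma adjusted p = 0.0245). Both SUPM2 arrays lay below both DEL arrays, though 7.65 and 7.69 were close.

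ACAT2 read 9.45 and 10.01 in Karpas299, 7.98 and 8.44 in DEL, and 7.7 and 7.4 in SUPM2, and was 1.89 in Karpas299 and -1.49 in SUPM2 against the mean of the other 2. MSMO1 read 5.99 and 6.24 in DEL, 8.01 and 7.55 in Karpas299 and 7.51 and 7.33 in SUPM2, and DEL differed by -1.45 (SE 0.21; limma adjusted p = 0.0343). CYP51A1 was 1.12 higher in Karpas299, FADS1 0.91 higher there and -0.84 in SUPM2, and these 3 calls were each lost in part of the alternatives. The 3 comparisons share their arrays.

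**Figure D4:**
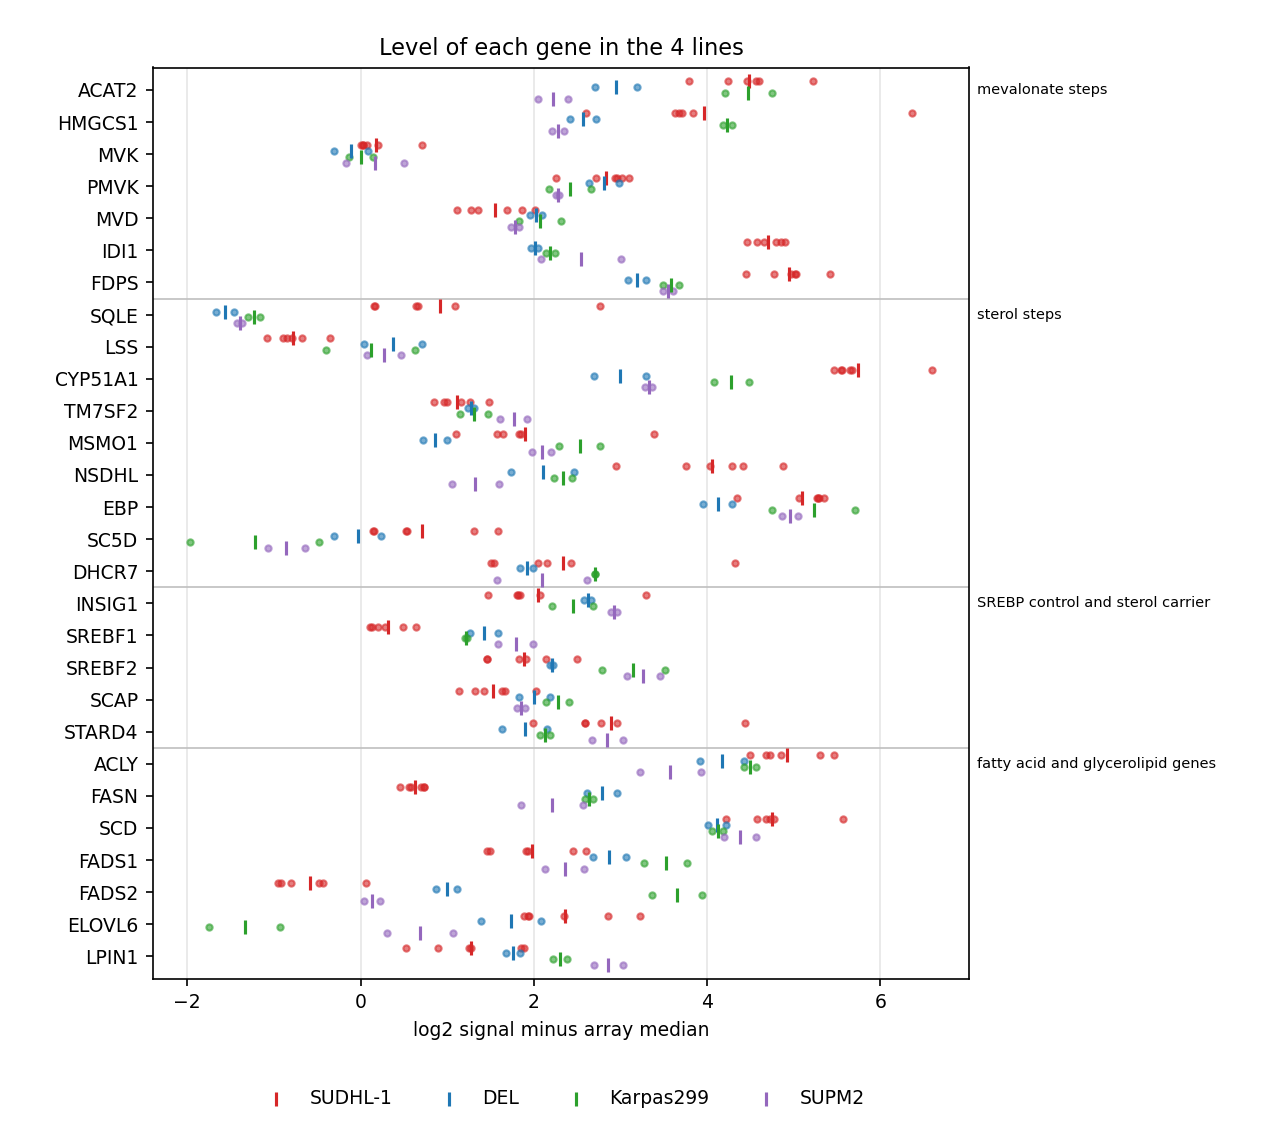
Level of each gene on each array, as log2 signal minus the array median, with SUDHL-1, DEL, Karpas299 and SUPM2 marked separately. IDI1, FDPS, SQLE, CYP51A1 and NSDHL lie higher on all 6 SUDHL-1 arrays than on any array of the other lines, and SREBF1 and FASN lie lower.

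Of the wider list of pathway genes, 8 of 28 were called higher and 8 lower in SUDHL-1 than in the other lines (limma). The background was 28.9% and 24.3% of all genes. SLC25A1, which exports citrate from mitochondria, was -1.23 (SE 0.09; limma adjusted p = 1.44e-06), FADS3, a desaturase relative, -1.81 and ELOVL7 3.02. In the sterol export, storage and LXR list 2 of 17 were higher and 4 lower, among them GRAMD1B, a carrier of cholesterol into the endoplasmic reticulum, at -3.60 (SE 0.13; limma adjusted p = 3.18e-08). For SP against MP over the 4 lines none of either list was called (0 of 28 and 0 of 17), and SLC25A1 had the smallest p of the pathway list at -0.26 (SE 0.10; unadjusted p = 0.044, limma adjusted p = 0.918).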

How the data were processed

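Arrays of 12 samples were used: 3 SP and 3 MP of SUDHL-1 and 1 SP and 1 MP each of the other 3 lines. Column-purified RNA was amplified with an Ovation Pico kit and biotin-labelled, per the labels' protocols. The authors deposited log2 signals, and the tool named for them is RMA, per the submitters' processing notes. A joint normalization of all columns was not given in the sources used here; separate runs could shift levels between lines more than differences within a line. No columns were left out (0).

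Of 33297 probe sets, 19460 carried 1 symbol in the platform annotation, 1754 several and 12083 none; 19429 of the 19460 matched RefSeq (GRCh38.p14) by Entrez identifier. The probe set with the highest mean stood for a gene with several (769 genes). Only probe sets with 1 symbol were used, which left 28 of the 30 listed genes, 0 of them among the dimmest 25%.

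Differences were tested in R 4.3.3 with limma 3.58.1 (functions lmFit and eBayes) over all named genes, two-sided, with Benjamini-Hochberg adjustment and a threshold of 0.05. SP minus MP in SUDHL-1 used 6 arrays (4 residual degrees of freedom), the 4 lines 1 difference each (3), the interaction all arrays with line as a block (6) and SUDHL-1 against the other 3 lines arrays centred on their medians (7). The fits were tested on simulated data. Arrays have no read depth, so their number limits precision.

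The listed genes, the further lists and the naming rule were chosen with earlier results of these data known. All listed genes were named, with up to 3 of smallest p from each further list described, the 5 non-members with the largest excess on SUDHL-1 MP array 3 and the 5 most like the mean of the 28. ELOVL7, ACSL1, TMEM97, NPC1 and ABCA1 on that array were named after their values were seen. The same holds for CD68, VIM, TMOD1, PTPN12 and the T cell genes among the markers. Alternatives changed the low-signal filter, scaling, probe-set rule, variance model, replicate block, weights, population term and the arrays or lines included.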

Additional observations from a re-analysis of the deposited data

Results flagged for a closer look

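Dixon's test at its 95% critical value (0.625 for 6 arrays, 0.829 for 4 lines) marked 1 array as far from the others for 10 of the 28 genes over the 6 SUDHL-1 arrays (35.7%, against 7.22% of all named genes; chance marks about 1 in 20). MP array 3 was the highest array for 8 of them, or 28.6%, against 0.999% of all genes: HMGCS1 at 11.24, MVK at 5.59, SQLE at 7.65, CYP51A1 at 11.48, MSMO1 at 8.27, DHCR7 at 9.20, STARD4 at 9.32 and SCD at 10.45. The mean over the 28 genes was marked as well, at 8.03 on MP array 3 against 7.1 to 7.31 on the other 5 arrays. The listed genes were chosen with earlier results of these data known. These marks and shares therefore describe MP array 3 and are no independent test of it. PMVK was marked for its lowest value, 7.14 on MP array 3, and EBP for its lowest value, 9.32 on SP array 1.

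Over the 4 differences between SP and MP, 2 genes were marked (7.14% of 28, against 5.96% of all named genes). ACAT2 was 0.31 in SUPM2 against -0.56 to -0.46 in the other lines, and FADS2 was 0.56 in Karpas299 against -0.36 to -0.22. SUPM2 and Karpas299 had 1 array per population, so these values have no replicate.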

How the results depend on the processing

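In SUDHL-1 SP minus MP, 0 of the 28 genes and 0 of all genes were called under every alternative, and the median over the 28 ranged from -0.41 to -0.06 with 1 array left out (-0.06 without MP replicate 3, -0.07 without both arrays numbered 3, -0.19 with array weights). Genes at an unadjusted p under 0.05 rose from 577 to 1918 with array weights, to 1006 without both arrays numbered 3 and to 909 without SP replicate 2. With the replicate number as a block there were 608 such genes and the median stayed at -0.32. Deviations of SP and MP arrays of the same number correlated at -0.004, -0.077 and -0.132, which gave no sign of pairing. Whether the number pairs them is not known, because unshared deviations cannot exclude it. With 1 array left out, the median was -0.18 to -0.10 over the 4 lines and -0.36 to -0.01 for the interaction, and the difference of the mean over the 28 genes was -0.50 to -0.07; without the Karpas299 line the 4-line median was -0.21. Genes at an unadjusted p under 0.05 over the 4 lines were 904, or 47 with a robust trended variance. For SUDHL-1 against the other lines, leaving out 1 array gave 18 to 22 called of the 28, 9004 to 9670 of all genes and a median of 0.17 to 0.32; 0.05 without DEL and 0.38 without Karpas299. Of all called genes 54.3% were higher, or 25% on the deposited scale; for SUPM2 28.3%, or 38.9% after quantile normalization. On the deposited scale without MP replicate 3, chosen after seeing the data, the median was -0.19 and DHCR7, MSMO1 and MVK turned to -0.64, -0.60 and -0.33; the cause was not tested. The median of the 28 in Karpas299 was 0.11 after quantile normalization, against 0.19, and in SUPM2 0.08 on the deposited scale, against 0.01.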

Other observations

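INSIG2, a relative of INSIG1 outside the listed genes, read 3.63 higher in SP than in MP in SUPM2, against -0.10, 0.48 and -0.16 in SUDHL-1, DEL and Karpas299. The SUPM2 value comes from 1 array per population and was chosen after its value was seen. ACACA, which makes malonyl-CoA, was lower in SP in all 4 lines, at -0.08, -0.44, -0.11 and -0.87 in SUDHL-1, DEL, Karpas299 and SUPM2, and its SUDHL-1 value was 0.23 without MP array 3.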
